A study of Saccharomyces cerevisiae with 12 samples.

Results

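The 33 genes described here encode 32 subunits of the yeast proteasome and RPN4, the transcription factor that activates their genes. They were chosen by systematic name from the 7127 genes in the deposited tables: the 20S core genes of the PRE and PUP series with SCL1, the 19S genes of the RPT and RPN series, and RPN4 (YDL020C). All 33 were found, and all 33 were among the 6082 genes with a mean value of at least 10 over the 12 libraries, which were the genes tested. By structure the subunits fall into 7 of the alpha ring and 7 of the beta ring of the 20S core, and 6 ATPases, 4 non-ATPase base subunits and 8 lid subunits of the 19S regulatory particle. SEM1, the small lid component also called RPN15, was not in the set and is counted with the assembly and accessory genes further on.

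The study examined loss of heterozygosity in Saccharomyces cerevisiae, and its transcriptome samples asked how gene expression stood in the environments where that loss was scored. RNA was sequenced from the diploid laboratory strain BY4743, which carries deletions of URA3 and LEU2, taken in advanced growth phase in 6 environments with 2 independently started cultures each. The environments were synthetic complete medium (SC) with 40 g/l of NaCl at 30°C, SC at 37°C, rich medium at 30°C in which 3% glycerol replaced glucose (YPG), rich glucose medium (YPD) at 24°C, YPD at 32°C, and SC at 30°C, the study's standard condition. All 12 libraries came from 1 strain, so the 2 cultures of an environment measure the spread between cultures and not between strains, and 5 of the 7 comparisons below share the 2 SC 30°C libraries. Medium and temperature both differ between the YPD or YPG libraries and the SC 30°C libraries, except that YPG and SC 30°C share the temperature.

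The proteasome degrades proteins that carry ubiquitin chains. Its 20S core is a stack of rings whose beta subunits hold the proteolytic sites inside the chamber and whose alpha subunits form the gate, while the 19S particle binds ubiquitin, removes it, and uses a ring of ATPases to unfold the substrate and push it in. Rpn4 is a short-lived zinc finger protein that is itself degraded by the proteasome and activates proteasome genes through a promoter element, the proteasome-associated control element (PACE), so that in yeast the supply of subunits and the fate of their activator are linked in a loop.

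The promoters of the set share this element. The letters GGTGGCAAA were searched on both strands, from 250 bases before to 50 bases after the annotated start of each protein-coding gene, in the RefSeq genome of the R64 build. They stood once in 27 of the 33 windows of the set (81.8%), against 72 of the 6002 windows of all protein-coding genes (1.20%). The 72 windows include the 27 of the set. The element was already known from proteasome genes, so these counts are a description and not a test. They were in 12 of the 14 windows of 20S genes and in 15 of the 18 windows of 19S genes, with 19 boxes on the strand of the gene and 8 on the opposite strand. The shorter core GGTGGC, which lies inside the full box, was in 29 of the 33 windows (87.9%) and in 416 of the 6002 (6.93%). The windows of PRE5, PUP1, RPN8, RPN10, RPN13 and RPN4 lacked the full box, and among these RPN10 and RPN13 held the core. No match says only that these letters were not in this window.

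The boxes of 10 genes are printed because the genes they belong to carry the results that follow, and because they show how the same 9 letters recur in different surroundings. Each is the reference sequence of the strand of the gene, read 5′ to 3′, with the box in capitals and 10 bases on either side. The boxes of PRE9 (chrVII:761223-761251), PRE3 (chrX:435035-435063), PRE1 (chrV:177683-177711), PRE2 (chrXVI:732184-732212), PRE7 (chrII:141150-141178) and RPT3 (chrIV:1261495-1261523) lie on the plus strand. Those of PUP2 (chrVII:999226-999254), RPT6 (chrVII:411352-411380) and RPN1 (chrVIII:164838-164866) lie on the minus strand, and RPN12 (chrVI:252398-252426, a plus strand gene) has its box on the opposite strand, so its capitals are the reverse complement.
PRE9: ttaccctgcaGGTGGCAAAaaatttatag
PUP2: aaccaagaccGGTGGCAAAagagtaacct
PRE3: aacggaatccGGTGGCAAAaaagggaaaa
PRE1: aaatctttacGGTGGCAAAaaataaagaa
PRE2: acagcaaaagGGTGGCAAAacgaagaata
PRE7: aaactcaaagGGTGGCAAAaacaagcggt
RPT3: ctgaaagtaaGGTGGCAAAatagtaaatc
RPT6: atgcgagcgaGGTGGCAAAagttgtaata
RPN1: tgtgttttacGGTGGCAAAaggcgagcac
RPN12: ctacacattaTTTGCCACCcattgaaatt

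The 27 boxes began between 84 bases (RPT6) and 183 bases (PUP3) before the annotated start, with a median of 120 bases. None of them lay after the start.

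**Figure D1:**
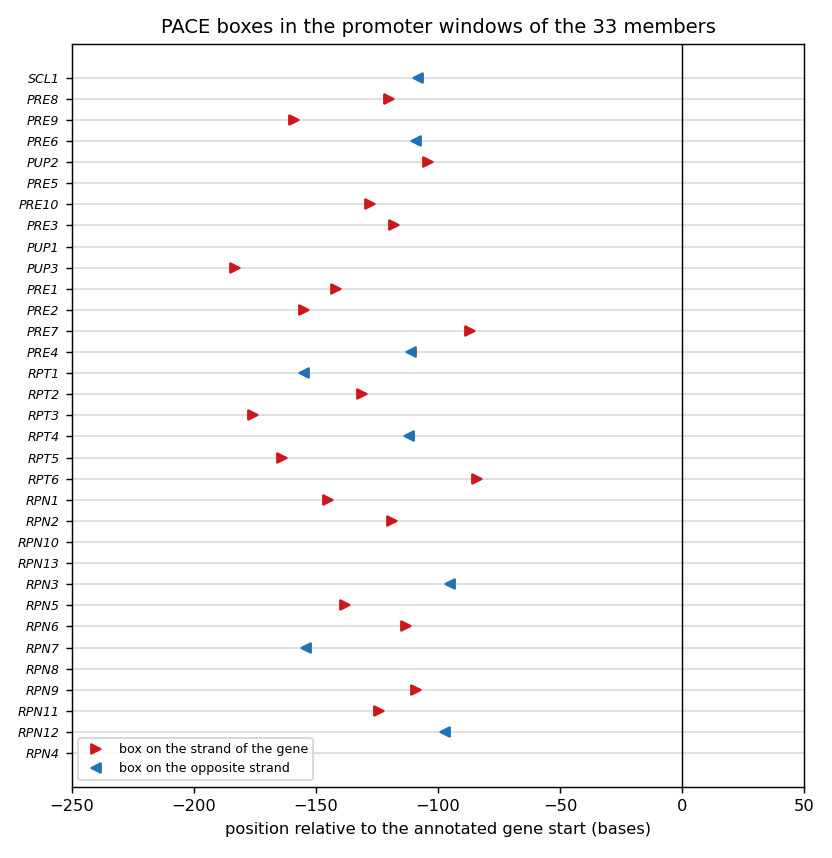
Position of each PACE box (GGTGGCAAA) in the promoter window of the 33 genes, in bases from the annotated start (vertical line at 0), with 1 row for each gene. Red triangles are boxes on the strand of the gene and blue triangles boxes on the opposite strand: all 27 lie between 84 and 183 bases before the start, and 6 rows are empty.

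The values in the following paragraphs are of 2 kinds. Normalised counts are the fragments assigned to a gene after the authors scaled the libraries to a common size, so that the totals of the libraries lay between 13872996 and 14144527, and FPKM (fragments per kilobase of transcript and per 1e6 fragments mapped) is the same measure divided by transcript length, which allows genes to be compared with each other. Both are shares of a library: in bulk RNA a lower value can mean less of that messenger or more of others, and these cannot be told apart. Differences are log2 differences of (normalised count + 1) from 1 limma fit over all 12 libraries, and a gene is called higher or lower where the Benjamini-Hochberg adjusted p, taken over all 6082 genes in a comparison, was below 0.05. URA3 and LEU2 were at 0 in all 12 libraries, as deleted genes. Replicate libraries correlated at between 0.987 and 0.994 across the tested genes, lowest for the NaCl pair. Rescaling by median of ratios gave size factors of 0.864 and 1.00 for the NaCl pair and between 0.885 and 1.12 for the other libraries, so scaling bears on some results and is named beside them. None of the 33 genes overlaps another gene of the RefSeq annotation, and whether the counting used strand is not given in the sources used here.

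RPN4 was the member whose level changed most. This gene (chrIV:415113-416708, minus strand, 1 coding exon) had 7973 and 7573 normalised counts in SC with NaCl, 1692 and 1918 in SC at 37°C, 3276 and 3764 in YPG, 2241 and 2366 in YPD at 24°C, 2065 and 1809 at 32°C in YPD, and 2692 and 2798 in SC at 30°C. The NaCl cultures stood far above the rest, the YPG cultures came next, SC at 30°C and YPD at 24°C followed without overlap, and the YPD 32°C and SC 37°C cultures at the low end overlapped. The highest environment mean, 7773 ± 283 in NaCl, was 4.31 times the lowest, 1805 ± 160 at 37°C (SD, n = 2 each).

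Against SC at 30°C, RPN4 was 2.83-fold higher in NaCl (log2 difference 1.50, SE 0.10, limma adjusted p = 1.84e-09) and 1.28-fold higher in YPG (log2 difference 0.36, adjusted p = 0.0049). It was lower at 37°C by 1.52-fold (log2 difference -0.61, adjusted p = 0.00042) and in YPD at 32°C by 1.42-fold (log2 difference -0.51, adjusted p = 0.00080). In YPD at 24°C the log2 difference was -0.25 with an adjusted p of 0.039, a call that held in 13 of 21 alternatives, and it turned to 0.03 with an adjusted p of 0.82 when the libraries were rescaled by median of ratios. Set against YPD at 32°C, RPN4 was 1.82-fold higher in YPG (log2 difference 0.86, adjusted p = 2.32e-06) and 1.19-fold higher in YPD at 24°C (log2 difference 0.25, adjusted p = 0.044). The YPG call against SC at 30°C was lost without YPG replicate 2 (log2 difference 0.26, adjusted p = 0.073), while the 24°C difference from YPD at 32°C, which was 0.52 after rescaling, was called in 13 of 21 alternatives.

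Of the 32 subunits, 31 had their highest mean in SC at 30°C, where 12.8% of all tested genes had theirs, and RPT6 had its highest in NaCl. The lowest mean was in YPG for 21 subunits, in NaCl for 10, and in YPD at 24°C for PRE7, whereas 21.7% of all tested genes were lowest in YPG, 38.8% in NaCl and 26.8% in YPD at 24°C. For some subunits these places depend on the scaling. After rescaling by median of ratios, PRE7, PRE8 and RPN7 were furthest below SC at 30°C in YPG. SCL1 and RPN6 in NaCl and RPN1 in YPD at 24°C then stood above SC at 30°C, by 0.06, 0.11 and 0.03 (log2 differences, none called). Dividing the highest mean by the lowest gave ratios from 1.68 (PRE7) to 3.16 (PRE3) with a median of 2.13, below the median of 2.99 over all tested genes. All 33 genes differed among the environments by the moderated F test of limma, as did 96% of all tested genes.

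Summed, the 32 subunits took 0.745% and 0.787% of all normalised counts in NaCl, 0.886% and 0.899% at 37°C, 0.578% and 0.608% in YPG, 0.807% and 0.819% in YPD at 24°C, 0.941% and 0.927% at 32°C in YPD, and 1.19% and 1.22% in SC at 30°C. The SC 30°C cultures gave the set its largest share and the YPG cultures its smallest, and no 2 environments overlapped.

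Per transcript length, RPN4 stood at 342 and 325 FPKM in NaCl, 72.5 and 82.2 at 37°C, 140 and 161 in YPG, 96.1 and 101 in YPD at 24°C, 88.5 and 77.6 at 32°C in YPD, and 115 and 120 in SC at 30°C. The median of the 32 subunits stood at 195 and 204 FPKM in NaCl, 253 and 269 at 37°C, 169 and 179 in YPG, 229 and 230 in YPD at 24°C, 279 and 275 at 32°C in YPD, and 361 and 370 in SC at 30°C. In the 2 NaCl libraries the messenger of the regulator exceeded the median subunit messenger, and in the other 10 it lay below it, closest in YPG. Among genes with a mean FPKM of at least 1, RPN4 stood at the 92.8th and 92.7th percentile of FPKM in NaCl, against the 75.9th and 75.5th in SC at 30°C.

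**Figure D2:**
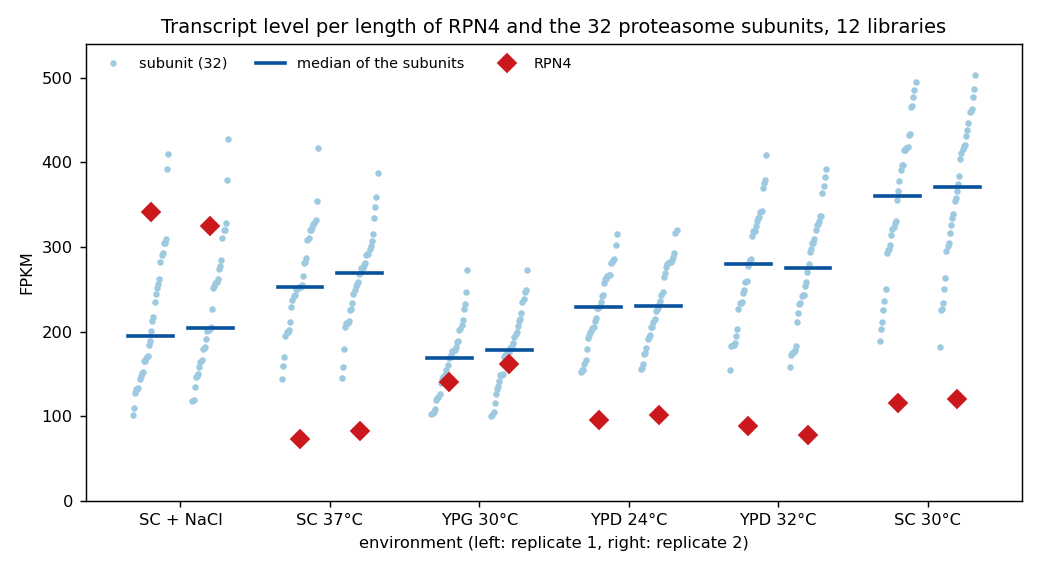
FPKM (linear axis from 0) of the 32 subunits (pale dots, sorted within a library), their median (dark bar) and RPN4 (red diamond) in each of the 12 libraries, replicate 1 on the left and replicate 2 on the right of each environment. RPN4 lies above the median of the subunits in the 2 NaCl libraries alone, at 342 and 325 against 195 and 204, and the medians are highest in SC at 30°C.

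In the alpha ring, which forms the gate of the core, the gene with the widest range was PRE9, which encodes the alpha subunit that yeast can live without. PRE9 (YGR135W, chrVII:761392-762168, plus strand) had 1916 and 2063 normalised counts in NaCl, 4027 and 4074 at 37°C, 2804 and 2836 in YPG, 3188 and 3235 in YPD at 24°C, 4645 and 4456 at 32°C in YPD, and 5288 and 5531 in SC at 30°C. Its NaCl cultures were lowest, and no 2 environments overlapped. PUP2 (YGR253C, chrVII:998358-999140, minus strand), the alpha ring gene with the narrowest range, had 3488 and 3667 normalised counts in NaCl, 4779 and 4431 at 37°C, 2595 and 2730 in YPG, 3053 and 3227 in YPD at 24°C, 3839 and 3847 at 32°C in YPD, and 5662 and 5765 in SC at 30°C. For PUP2 the YPG cultures were lowest and NaCl stood in the middle. The other alpha ring genes split in the same way: PRE5, PRE6, PRE8 and PRE10 had their lowest mean in NaCl, as PRE9 did, and SCL1 had its lowest in YPG. After rescaling by median of ratios PRE8 was lowest in YPG, with log2 differences from SC at 30°C of -0.97 in YPG and -0.90 in NaCl.

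The beta ring holds the catalytic subunits. PRE3 (YJL001W, chrX:435163-435926, plus strand, 2 coding exons), which carries the caspase-like site, had 2379 and 2410 normalised counts in NaCl, 3144 and 2768 at 37°C, 1165 and 1346 in YPG, 2303 and 2340 in YPD at 24°C, 2665 and 2890 at 32°C in YPD, and 3960 and 3972 in SC at 30°C. It had the widest range of all subunits, with YPG far below the rest and with the 37°C and YPD 32°C cultures overlapping. PUP1 (YOR157C, chrXV:630966-631751, minus strand), which carries the trypsin-like site, had 2168 and 2365 normalised counts in NaCl, 2725 and 2692 at 37°C, 1711 and 2080 in YPG, 2344 and 2220 in YPD at 24°C, 2331 and 2426 at 32°C in YPD, and 3712 and 3751 in SC at 30°C. Apart from SC at 30°C, which stood alone at the top, PUP1 varied little, and the NaCl, YPD 24°C and YPD 32°C cultures overlapped. PRE2 (YPR103W, chrXVI:732349-733212, plus strand), which carries the chymotrypsin-like site, had 2322 and 2421 normalised counts in NaCl, 4046 and 3468 at 37°C, 1950 and 2282 in YPG, 3610 and 3693 in YPD at 24°C, 4101 and 3904 at 32°C in YPD, and 6129 and 5853 in SC at 30°C. Here NaCl and YPG were both low and next to each other, and the 37°C cultures spanned those of YPD at 24°C.

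Of the beta subunits without a catalytic site, PRE7 (YBL041W, chrII:141247-141972, plus strand) had the narrowest range of the 32 subunits. It had 3087 and 3487 normalised counts in NaCl, 3393 and 3344 at 37°C, 2889 and 2895 in YPG, 2785 and 2856 in YPD at 24°C, 3983 and 4066 at 32°C in YPD, and 4602 and 4878 in SC at 30°C. PRE7 alone was lowest in the 24°C cultures, just below YPG. After rescaling by median of ratios YPG was lowest for PRE7. Its log2 difference from SC at 30°C was then -0.58 in YPG and -0.47 in YPD at 24°C. PRE1 (YER012W, chrV:177835-178431, plus strand), named after its values were seen because it was furthest below SC at 30°C in NaCl, had 1149 and 1177 normalised counts in NaCl, 2192 and 2403 at 37°C, 1213 and 1487 in YPG, 2463 and 2518 in YPD at 24°C, 3222 and 3177 at 32°C in YPD, and 3415 and 3821 in SC at 30°C. PRE1 was low in both NaCl and YPG, and no 2 environments overlapped.

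The 6 ATPases build the unfolding ring of the base. RPT6 (YGL048C, chrVII:410069-411286, minus strand) had the widest range of them and was the only subunit with its highest mean normalised count in NaCl. It had 7299 and 7612 normalised counts in NaCl, 4489 and 4530 at 37°C, 3022 and 3139 in YPG, 4174 and 4326 in YPD at 24°C, 5059 and 4991 at 32°C in YPD, and 6323 and 6835 in SC at 30°C. The NaCl cultures lay above those of SC at 30°C without overlap. After rescaling by median of ratios, SCL1 and RPN6 also stood above SC at 30°C in NaCl, by 0.06 and 0.11 (log2 differences, neither called). RPT3 (YDR394W, chrIV:1261681-1262967, plus strand), with the narrowest range of the ATPases, had 3774 and 3766 normalised counts in NaCl, 3803 and 4238 at 37°C, 3020 and 3245 in YPG, 3693 and 3866 in YPD at 24°C, 4389 and 4576 at 32°C in YPD, and 5573 and 5669 in SC at 30°C. In these normalised counts both NaCl cultures of RPT3 lay between the 2 cultures of YPD at 24°C. This placing depends on the scaling. After rescaling by median of ratios, the log2 differences of RPT3 from SC at 30°C were -0.36 in NaCl and -0.29 in YPD at 24°C.

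Among the base subunits without ATPase activity, RPN13 (YLR421C, chrXII:965090-965560, minus strand), a receptor for ubiquitin, had the widest range. It had 1615 and 1803 normalised counts in NaCl, 1725 and 1777 at 37°C, 820 and 931 in YPG, 1326 and 1347 in YPD at 24°C, 1779 and 1751 at 32°C in YPD, and 2262 and 2439 in SC at 30°C. YPG was lowest by a wide margin, and the NaCl, 37°C and YPD 32°C cultures overlapped. RPN1 (YHR027C, chrVIII:161730-164711, minus strand), the large scaffold on which ubiquitin shuttle proteins dock, had 6608 and 6409 normalised counts in NaCl, 6254 and 6311 at 37°C, 4470 and 4428 in YPG, 6753 and 6826 in YPD at 24°C, 6737 and 6894 at 32°C in YPD, and 8226 and 7919 in SC at 30°C. The 24°C cultures of RPN1 lay between those at 32°C. After rescaling by median of ratios RPN1 was higher at 24°C than at 32°C in YPD (log2 difference 0.26, limma adjusted p = 0.034).

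The lid removes ubiquitin chains through RPN11, whose partner in the lid is RPN8. In the lid RPN12 (YFR052W, chrVI:252505-253329, plus strand), the last subunit to join it during assembly, had the widest range, with 1605 and 1763 normalised counts in NaCl, 2543 and 2566 at 37°C, 1303 and 1267 in YPG, 1949 and 2109 in YPD at 24°C, 2200 and 2122 at 32°C in YPD, and 3013 and 3179 in SC at 30°C. Its environments did not overlap, although YPD at 24°C and at 32°C nearly touched. After rescaling by median of ratios, RPN12 stood above its 32°C level at 24°C in YPD, without a call (log2 difference 0.17, limma adjusted p = 0.059). RPN8 (YOR261C, chrXV:815915-816931, minus strand) had the narrowest range, with 4352 and 3834 normalised counts in NaCl, 3792 and 4173 at 37°C, 2635 and 2772 in YPG, 3391 and 3457 in YPD at 24°C, 3650 and 3478 at 32°C in YPD, and 4670 and 5040 in SC at 30°C. In these normalised counts the NaCl and 37°C cultures overlapped and lay nearer to SC at 30°C than the others did. After rescaling by median of ratios, YPD at 24°C was nearer to SC at 30°C than 37°C was. The log2 differences of RPN8 from SC at 30°C were then -0.03 in NaCl, -0.22 in YPD at 24°C and -0.30 at 37°C. They were -0.43 in YPD at 32°C and -0.71 in YPG.

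**Figure D3:**
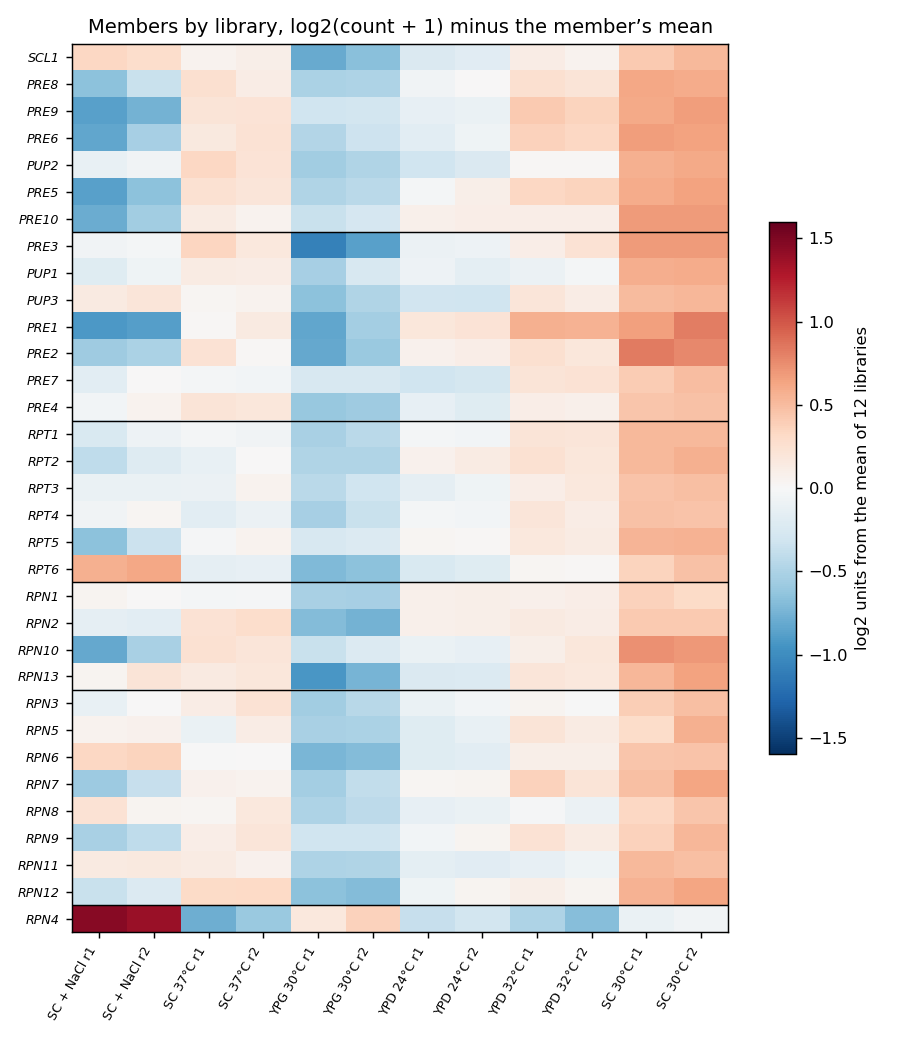
Level of each of the 33 genes in each of the 12 libraries (columns, r1 and r2 being the replicates), as log2(normalised count + 1) minus the mean of that gene over the 12 libraries, with red for higher and blue for lower. Black lines separate the alpha ring, beta ring, ATPases, non-ATPase base, lid and RPN4: the SC 30°C columns are red for all 32 subunits, the YPG columns blue for all 32, and RPN4 is red in NaCl.

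Salt separated the subunits from each other. In NaCl against SC at 30°C, 29 of the 33 genes were lower and 2 were higher, RPN4 and RPT6, while SCL1 (log2 difference -0.16, adjusted p = 0.073) and the lid gene RPN6 (log2 difference -0.11, adjusted p = 0.16) were not called. Of all tested genes, 47.2% were lower and 33.8% higher. The median log2 difference of the 33 genes was -0.68, against -0.22 over all tested genes. PRE1 lay 3.11-fold lower in NaCl (log2 difference -1.63, SE 0.10, adjusted p = 1.02e-09) and PRE9 2.72-fold lower (log2 difference -1.44, SE 0.07, adjusted p = 1.45e-10). RPT6 was 1.13-fold higher (log2 difference 0.18, SE 0.07, adjusted p = 0.037), a call that was lost in 7 of 21 alternatives with adjusted p between 0.053 and 0.24, among them leaving out NaCl replicate 2 or SC 30°C replicate 1. After rescaling by median of ratios, which moved the median of all genes to 0, RPT6 was higher by 0.40 (adjusted p = 0.00014) and 24 of the 33 genes were lower with a median of -0.46. Of the 6083 genes tested after rescaling, 2543 were lower and 2526 higher.

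In salt the median difference was larger in the core than in the regulatory particle. All 14 genes of the 20S core had a negative log2 difference in NaCl, 13 of them called, with a median of -0.92, and of the 18 genes of the 19S particle 16 were lower, with a median of -0.54. After rescaling, SCL1 was at 0.06 (adjusted p = 0.53) and RPN6 at 0.11 (adjusted p = 0.18), 12 of the 14 core genes and 12 of the 18 genes of the 19S particle were called lower, and the medians were -0.70 and -0.32. Without rescaling 47.2% of all tested genes were lower, and after it 2543 of 6083 were. The medians by structure, without rescaling, were -1.34 for the alpha ring, -0.72 for the beta ring, -0.63 for the ATPases, -0.52 for the non-ATPase base and -0.43 for the lid. In the base, RPN10, a ubiquitin receptor, was the most negative with -1.38. The ratio of the median FPKM of the 20S genes to that of the 19S genes was 0.891 and 0.906 in NaCl, 1.36 and 1.19 at 37°C, 1.08 and 1.13 in YPG, 1.25 and 1.32 in YPD at 24°C, 1.37 and 1.33 at 32°C in YPD, and 1.35 and 1.32 in SC at 30°C. This ratio of levels does not depend on the scaling of a library, and it fell below 1 in the 2 NaCl libraries and in no other. The levels of the subunits were also most uneven there: the highest FPKM among them was 4.04 and 3.64 times the lowest in the NaCl libraries, and between 2.06 and 2.91 times the lowest in the other 10.

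**Figure D4:**
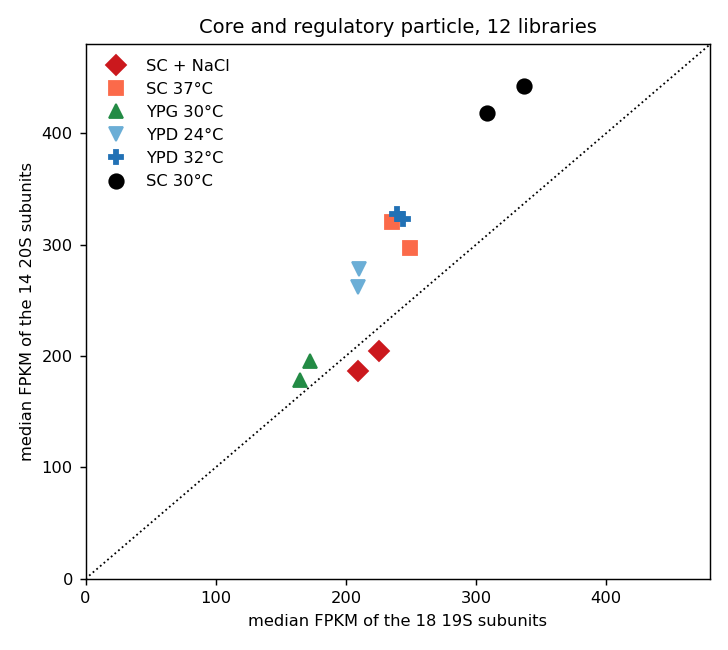
Median FPKM of the 14 genes of the 20S core (vertical axis) against the median FPKM of the 18 genes of the 19S particle (horizontal axis), both linear from 0, with 1 symbol for each of the 12 libraries and a dotted line of equal levels. The 2 NaCl libraries lie below the line, at ratios of 0.891 and 0.906, the other 10 lie above it, and the SC 30°C libraries lie farthest from the origin.

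At 37°C the subunits were lower by a small amount. Against SC at 30°C, 32 of the 33 genes were lower and none had a positive difference, RPN2, a scaffold of the base, being the one not called (log2 difference -0.16, adjusted p = 0.14). Of all tested genes, 11.6% were lower and 11.9% higher. The median log2 difference of the 33 genes was -0.45, against 0.02 over all tested genes, and it was -0.47 after rescaling. The largest difference was that of PRE2, 1.60-fold lower at 37°C (log2 difference -0.68, SE 0.09, adjusted p = 0.00014). The medians of the 20S and 19S genes were both -0.44. RPN4 was lower in this comparison as well, by 0.61, and so it moved with the subunits here and against most of them in NaCl.

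Over the 33 genes together, the median difference from SC at 30°C was largest in glycerol, although for the alpha ring it was larger in NaCl (-1.34, against -1.08 in YPG), as was the difference of RPN4. Against SC at 30°C all 32 subunits were lower in YPG, with log2 differences between -1.66 (PRE3) and -0.71 (PRE7), and RPN4 was higher. Of all tested genes, 38.7% were lower and 28.1% higher. The median of the 33 genes was -1.02, against -0.11 over all tested genes, and after rescaling it was -0.89 with the same numbers called in each direction. Of the 6083 genes tested after rescaling, 2110 were lower and 2189 higher. PRE3 lay 3.17-fold lower (SE 0.09, adjusted p = 1.17e-09), PRE2 2.84-fold lower (adjusted p = 4.53e-09) and RPN13 2.69-fold lower (adjusted p = 6.13e-09). The core and the regulatory particle had medians of -1.09 and -0.99.

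Against YPD at 32°C, which has glucose in place of glycerol and is 2°C warmer, all 32 subunits were again lower in YPG and RPN4 was higher. Of all tested genes, 36.5% were lower and 26.9% higher. The log2 differences of the subunits ran from -1.25 (PRE1) to -0.33 (PUP1), and the median of the 33 genes was -0.68, against -0.10 over all tested genes and -0.57 after rescaling. PRE1 was 2.38-fold lower (adjusted p = 6.25e-08), PRE3 2.22-fold (adjusted p = 6.12e-08) and RPN13 2.02-fold (adjusted p = 2.54e-07).

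Rich glucose medium also stood below SC at 30°C. In YPD at 32°C 31 of the 33 genes were lower than in SC at 30°C and none had a positive difference, PRE1 (log2 difference -0.18, adjusted p = 0.19) and RPN5 (log2 difference -0.26, adjusted p = 0.051) being the ones not called. Of all tested genes, 21.5% were lower and 16.7% higher. The median was -0.37, against -0.01 over all tested genes, and rescaling changed it to -0.35. PUP1 had the largest difference and was 1.57-fold lower (log2 difference -0.65, SE 0.09, adjusted p = 7.07e-05). In YPD at 24°C all 33 genes were lower than in SC at 30°C, with a median of -0.61, against -0.29 over all tested genes, of which 45.6% were lower and 10.4% higher. PUP2 was 1.82-fold lower there (log2 difference -0.86, SE 0.08, adjusted p = 3.75e-07). Rescaling moved the share of higher genes among all calls to 48.1%, against 18.6% without it. It left 28 of the 33 genes lower with a median of -0.33, and turned the signs of RPN4 and RPN1, both to 0.03. Of the 6083 genes tested after rescaling, 1747 were lower and 1617 higher.

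Between the 2 temperatures of YPD most calls depended on the scaling. At 24°C in YPD, set against 32°C, 19 of the 33 genes were lower and RPN4 was higher, with a median of -0.25, but the median of all tested genes was -0.26, and 42.6% of them were lower and 6.71% higher. After rescaling 21 of the 32 subunits had a positive sign where all 32 had a negative one without it, the median of the 33 genes was 0.02, with 4 called higher and 4 lower, and the share of higher genes among all calls was 50.4%, against 13.6% without it. Over all 6083 genes tested after rescaling, 1269 were higher and 1251 lower. PRE7 was 1.43-fold lower at 24°C (log2 difference -0.51, SE 0.08, adjusted p = 0.00015) and PRE9 1.42-fold lower (log2 difference -0.50, SE 0.07, adjusted p = 0.00010), and after rescaling their log2 differences were -0.25 (adjusted p = 0.0083) and -0.24 (adjusted p = 0.0092). The 13 genes not called included PRE2, PRE10, PUP1, RPT2, RPT4, RPT5 and 7 genes of the base and lid. Leaving out 1 of the 4 libraries compared left between 7 and 11 of the 33 genes called.

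**Figure D5:**
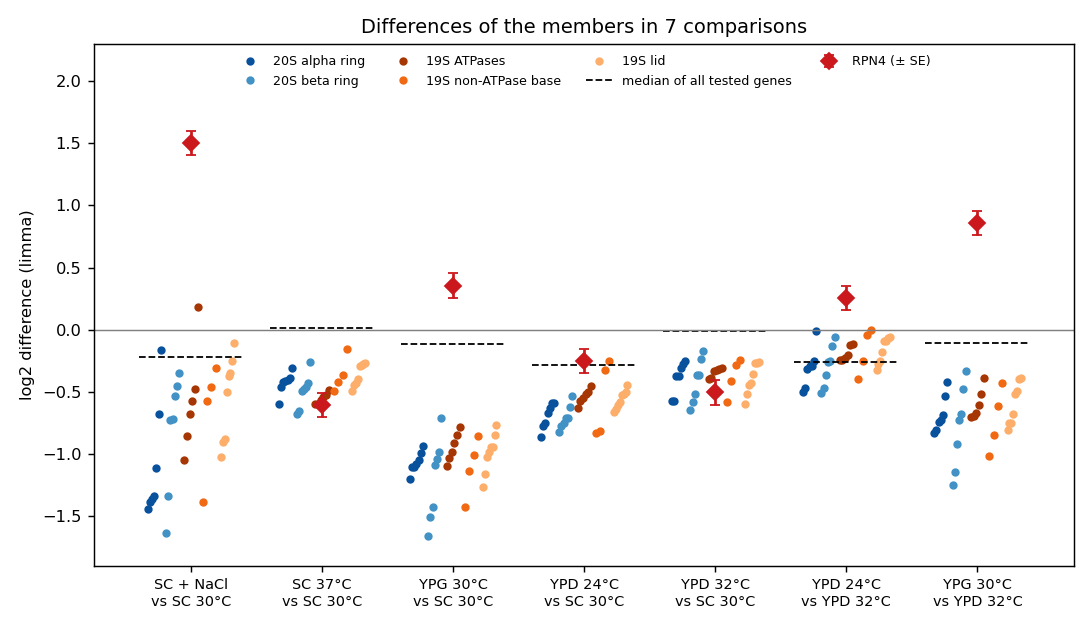
Log2 differences of the 33 genes in the 7 comparisons, coloured by structural group, with RPN4 as a red diamond with its standard error and a dashed line for the median of all 6082 tested genes. The subunits lie below the dashed line in most comparisons and spread widest in NaCl, between -1.63 and 0.18, while in YPD at 24°C against 32°C they lie around it.

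Subunits with and without the box of the promoter are set side by side here, with no test. In NaCl the 27 subunits with the full PACE box had a median log2 difference of -0.68, with 24 lower and 1 higher, and the 5 without it had a median of -0.72, with all 5 lower. Over all tested genes 47.2% were lower and 33.8% higher. RPN10 and RPN13, which are among the 5, hold the shorter core GGTGGC. In YPG against SC at 30°C the medians were -1.03 with the box and -1.01 without it, and at 37°C they were -0.45 and -0.42. For YPD at 24°C they were -0.61 with the box and -0.71 without it, and for YPD at 32°C -0.36 and -0.45, both set against SC at 30°C. Against the YPD 32°C cultures they were -0.69 and -0.43 in YPG and -0.25 and -0.26 in the 24°C cultures. RPT6, whose box lies nearest to its start among the 27, and PRE1 and PRE9 all hold the same 9 letters. Their differences in NaCl were 0.18, -1.63 and -1.44. Whether the box bears on these differences was not tested.

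Genes around the proteasome moved less uniformly. Of 15 assembly and accessory genes, 4 were higher and 6 lower in NaCl than in SC at 30°C, 2 were higher and 2 lower at 37°C, none was higher and 11 were lower in YPG, and in YPD none was higher while 14 were lower at 24°C and 5 at 32°C. Set against YPD at 32°C, 1 was higher and 10 lower in YPG, and none was higher and 9 lower in YPD at 24°C. In the comparisons with none higher, limma also gave 0 higher at an unadjusted p below 0.05. The shares of all tested genes in the same order of comparisons were 33.8% higher and 47.2% lower in NaCl, 11.9% and 11.6% at 37°C, 28.1% and 38.7% in YPG, 10.4% and 45.6% for YPD at 24°C, 16.7% and 21.5% for YPD at 32°C, and against YPD at 32°C 26.9% and 36.5% in YPG and 6.71% and 42.6% at 24°C. The NaCl and 37°C counts are near these shares. After rescaling the counts were 5 higher and 6 lower in NaCl, 2 and 3 at 37°C, 1 and 11 in YPG, 1 and 11 for YPD at 24°C, 1 and 7 for YPD at 32°C, and against YPD at 32°C 1 and 8 in YPG and 3 and 8 at 24°C. Over all 6083 genes tested after rescaling, 2526 were higher and 2543 lower in NaCl, 831 and 971 at 37°C, and 2189 and 2110 in YPG. They were 1617 and 1747 for YPD at 24°C and 1340 and 1421 for YPD at 32°C. Against YPD at 32°C they were 2101 and 1996 in YPG and 1269 and 1251 at 24°C. BLM10, an alternative activator that caps the core in place of the 19S particle, had 9366 and 9215 normalised counts in NaCl, against 3184 and 3099 in SC at 30°C. It was 2.96-fold higher (log2 difference 1.56, adjusted p = 8.42e-11), whereas ADD66, a chaperone of alpha ring assembly, had 300 and 467 in NaCl against 1293 and 1310 in SC at 30°C, 3.47-fold lower (log2 difference -1.80, adjusted p = 1.01e-07). At 37°C POC4, another such chaperone, was higher by 0.70 (adjusted p = 0.0051) and BLM10 had a log2 difference of -0.62 (adjusted p = 5.2e-05). In YPG against YPD at 32°C BLM10 was higher by 0.60 (adjusted p = 8.94e-06), and HUL5, a ubiquitin ligase bound to the proteasome, had a log2 difference of -1.24 (adjusted p = 1.49e-07).

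Of 14 genes of ubiquitin conjugation and substrate delivery, 5 were higher and 6 lower in NaCl than in SC at 30°C, and at 37°C none was higher and 10 were lower. Against SC at 30°C, 2 were higher and 11 lower in YPG, none was higher and 12 were lower in YPD at 24°C, and 1 was higher and 8 were lower in YPD at 32°C. Compared with the YPD 32°C cultures, 2 were higher and 9 lower in YPG, and none was higher and 9 were lower in YPD at 24°C. Where none was higher, 0 were higher at an unadjusted p below 0.05 in the limma fit. In NaCl these counts are near the shares of all tested genes, 33.8% higher and 47.2% lower, whereas at 37°C 11.6% of all tested genes were lower. In the other comparisons the shares of all tested genes that were lower were 38.7% in YPG, 45.6% for YPD at 24°C and 21.5% for YPD at 32°C, all relative to SC at 30°C, and 36.5% in YPG and 42.6% at 24°C against YPD at 32°C. The shares higher than in SC at 30°C were 11.9% at 37°C, 28.1% in YPG, 10.4% for YPD at 24°C and 16.7% for YPD at 32°C. Against YPD at 32°C, 26.9% were higher in YPG and 6.71% at 24°C. After rescaling the counts were 7 higher and 6 lower in NaCl, 0 and 10 at 37°C, 3 and 11 in YPG, 1 and 10 for YPD at 24°C, 1 and 9 for YPD at 32°C, and against YPD at 32°C 4 and 8 in YPG and 0 and 3 at 24°C. The rescaled counts over all genes are those given with the assembly genes. The ubiquitin-conjugating enzymes UBC4 and UBC5 went in opposite directions in NaCl. UBC5 had 3025 and 2830 normalised counts in NaCl, against 351 and 301 in SC at 30°C, 8.98-fold higher (log2 difference 3.17, adjusted p = 2.83e-11), and UBC4 had 1023 and 1024 in NaCl, against 4234 and 4371, 4.20-fold lower (log2 difference -2.07, adjusted p = 4.17e-12). These paralogs are nearly identical, and how the counting split reads between them is uncertain. UBC5 was also higher in YPG than in YPD at 32°C, by 2.11 (adjusted p = 9.58e-09), where DOA1, a cofactor of Cdc48, had a log2 difference of -1.12 (adjusted p = 3.74e-08). At 37°C UFD1, another cofactor of Cdc48, had a log2 difference of -0.70 (adjusted p = 7.7e-05).

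Of 7 genes known to act on RPN4, namely its upstream activators HSF1, YAP1, PDR1 and PDR3, the ubiquitin ligase UBR2 with its partner MUB1, and the ubiquitin-conjugating enzyme RAD6, 4 were higher and none was lower in NaCl than in SC at 30°C, where 33.8% of all tested genes were higher and 47.2% lower. HSF1 had 3700 and 3994 normalised counts in NaCl, against 2212 and 2313 in SC at 30°C (log2 difference 0.76, adjusted p = 2.08e-06). At 37°C 1 of the 7 was lower, YAP1 (log2 difference -0.63, adjusted p = 7.8e-05), and none was higher. Against SC at 30°C, 1 was higher and 2 were lower in YPG, and in YPD none was higher while 6 were lower at 24°C and 4 at 32°C. In YPG against YPD at 32°C 3 were higher, led by UBR2 (log2 difference 0.57, adjusted p = 7.1e-05), and 2 were lower, led by RAD6 (log2 difference -0.64, adjusted p = 0.00052). Between the YPD temperatures none was higher at 24°C and 4 were lower. At an unadjusted p below 0.05 in the limma fit, 1 gene was higher at 37°C and 1 for YPD at 32°C when set against SC at 30°C, and 0 in the other comparisons with none higher or, in NaCl, none lower. Of all tested genes, 11.6% were lower at 37°C, 38.7% in YPG, 45.6% for YPD at 24°C and 21.5% for YPD at 32°C, all relative to SC at 30°C, and against YPD at 32°C 26.9% were higher and 36.5% lower in YPG and 42.6% lower at 24°C. The shares higher than in SC at 30°C were 11.9% at 37°C, 28.1% in YPG, 10.4% for YPD at 24°C and 16.7% for YPD at 32°C. Between the YPD temperatures, 6.71% were higher at 24°C. After rescaling the counts were 7 higher and 0 lower in NaCl, 1 and 2 at 37°C, 3 and 2 in YPG, 0 and 3 for YPD at 24°C, 1 and 5 for YPD at 32°C, and against YPD at 32°C 4 and 1 in YPG and 0 and 0 at 24°C. Over all 6083 genes tested after rescaling, 2526 were higher and 2543 lower in NaCl. The other rescaled counts over all genes are those given with the assembly genes.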

How the data were processed

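Total RNA of 12 cultures was sequenced. The authors checked reads with fastQC, aligned them with Hisat2 to the R64 genome of Ensembl, used SAMtools 1.9 for sorting, and ran cuffquant and cuffnorm to quantify genes. The deposited count table therefore holds a library-size-normalised signal, called normalised counts here, and the second table deposited by the authors holds FPKM. Fragments could not be recovered from the count table: 74.2% to 82% of low values were whole multiples of a step (tolerance 0.01), so no count model was used. Totals divided by that step give an approximate depth of 1.24e+07 to 1.55e+07 fragments for each library. Replicates were not pooled. The labels name YPD as the medium of the YPG samples, whose titles and growth protocol name glycerol medium, and they were grouped by title.

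limma 3.58.1 in R 4.3.3 was fitted with a mean-variance trend to log2(value + 1), a pseudocount of 1, of the 6082 genes whose mean reached 10, with environment as the factor and all 12 libraries. The fit was tested on simulated data. The members and lists were chosen with earlier results of these data known. Values per library are given for RPN4, the subunit with the widest and the narrowest range in each structural group, the catalytic subunits and any gene called against the direction of most. Promoter windows were cut from the RefSeq genome of R64. Alternatives were scaling, pseudocounts of 0.5 and 10, no filter, a minimum mean of 50, the FPKM table, the replicate number, only the environments compared, no trend, and each library left out.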

Additional observations from a re-analysis of the deposited data

How the results depend on the processing

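With 2 cultures for each environment, the spread behind the p-values of the main fit was pooled over all 6 environments and moderated across genes. It is therefore not the spread of the 2 environments compared. Replicates differed most in NaCl, with a median absolute difference of 0.217 log2 units, against 0.077 to 0.117 in the other environments. Of 4851 values of single genes under the alternatives, 4632 kept their direction and their side of the threshold, 164 lost a call, 28 gained one and 27 changed sign. Leaving out each library in turn gave between 29 and 32 members called in NaCl, 24 and 33 at 37°C, 32 and 33 in YPG, 31 and 33 at 24°C in YPD and 21 and 32 for YPD at 32°C, each against SC at 30°C, and between 32 and 33 in YPG against YPD at 32°C. All 33 were called over the 6 environments each time.

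The comparison of 24°C with 32°C in YPD moved most: of its 20 members called, 8 were called after median-of-ratios scaling, and between 7 and 22 when each library was left out (7 without YPD 24°C replicate 1, 11 without replicate 2, 9 without YPD 32°C replicate 1, 11 without replicate 2). That scaling turned the sign of its median to 0.017 and of PRE8 to 0.0078, PRE10 to 0.25, PRE3 to 0.0054, PRE4 to 0.0084, RPT1 to 0.032, RPT3 to 0.017, RPT6 to 0.021, RPN1 to 0.26, RPN10 to 0.0073, RPN3 to 0.17, RPN7 to 0.010, PUP1 to 0.20, PRE2 to 0.13, RPT2 to 0.15, RPT4 to 0.063, RPT5 to 0.14, RPN2 to 0.22, RPN8 to 0.21, RPN9 to 0.085, RPN11 to 0.20 and RPN12 to 0.17. In NaCl it turned SCL1 to 0.056 and RPN6 to 0.11, and for YPD at 24°C set against SC at 30°C it turned RPN1 to 0.033 and RPN4 to 0.029. RPN1 at 24°C against 32°C in YPD, which was uncalled at -0.0053, ranged from -0.022 to 0.011 when each library was left out, being 0.0024 without YPD 24°C replicate 1 and 0.011 without YPD 32°C replicate 2. That scaling put the medians of all genes between -0.0043 and 0.017.

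In the comparisons made, the deviations of same-numbered libraries correlated at between -0.094 and 0.213. The highest value was that of SC at 37°C against SC at 30°C. Cultures handled together could also give low correlations, so these values do not decide whether the numbers pair the samples. The main fit did not pair them. With the replicate block, 31 members were called in NaCl, 32 at 37°C, 33 in YPG, 33 for YPD at 24°C and 32 for YPD at 32°C against SC at 30°C, 20 at 24°C and 33 in YPG against YPD at 32°C, and 33 over the 6 environments.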

Other observations

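Outside the 33 genes, 45 protein-coding genes held the full PACE box in their promoter window, and 43 of them were tested. They include CDC48, the segregase that extracts ubiquitinated proteins, UBA1, the ubiquitin-activating enzyme, UBI4, which encodes polyubiquitin, and PDI1, a folding enzyme of the endoplasmic reticulum. In NaCl against SC at 30°C 17 of the 43 were higher (39.5%) and 20 lower (46.5%), near the shares of 33.8% and 47.2% over all tested genes, with a median log2 difference of -0.01. In YPG against SC at 30°C 8 were higher (18.6%, against 28.1% of all tested genes) and 24 lower (55.8%, against 38.7%). Their median there was -0.48, against -0.11 over all tested genes. For YPD at 24°C, also against SC at 30°C, 1 was higher (2.33%, against 10.4%) and 33 were lower (76.7%, against 45.6%). The median was -0.57, against -0.29 over all tested genes. For YPD at 32°C 2 were higher (4.65%, against 16.7%) and 21 lower (48.8%, against 21.5%), and at 37°C 4 were higher (9.30%, against 11.9%) and 8 lower (18.6%, against 11.6%). Against YPD at 32°C 7 were higher (16.3%, against 26.9%) and 17 lower in YPG (39.5%, against 36.5%). At 24°C 0 were higher, against 6.71% of all tested genes, and 20 lower (46.5%, against 42.6%). Of the 45 windows, 38 lie apart from every window of the 33 genes, and the other 7 share theirs with one of them. These are descriptions of the genes that hold these letters, and whether the box acts in them was not tested.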
